A study of Mus musculus with 16 samples.

Results

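Origin licensing and replication fork genes were followed across 4 levels of dietary valine in mouse T cell acute lymphoblastic leukaemia (T-ALL). The set is 10 of the 12012 genes in the expression table, taken by symbol: Mcm2, Mcm3, Mcm4, Mcm5, Mcm6, Mcm7, Cdc6, Cdt1, Cdc45 and Pcna. All 10 were in the table and all passed the filter on low values in total RNA and in ribosome-protected fragments (RPF). C57BL/6 mice carried secondary transplants of NOTCH-ΔE tumours, in which a truncated Notch receptor signals without ligand, and every group including the controls shared that transplant. For 3 weeks the mice were kept on a control diet (8 g/kg valine), on a valine-deficient diet (0 g/kg), or on the deficient diet with 0.4 or 0.8 g/kg added back. Doses are those of the sample characteristics, in g per kg, although the treatment protocol describes the added valine as given in drinking water. GFP-positive leukaemic cells sorted from spleen gave libraries of total RNA and of RPF, the stretches of mRNA shielded by ribosomes, with 2 libraries per diet and fraction, named T-ALL 2 and T-ALL 3. The molecule field of the RPF samples reads polyA RNA, while their titles and the extraction kit describe ribosome profiling, and RPF and TE are used here as the titles name them. Whether a T-ALL number means another primary tumour or another recipient is not stated in the labels. The p-values therefore reflect only how far these libraries differ, which may be technical.

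DNA replication is prepared in G1 phase and carried out in S phase. The origin recognition complex recruits CDC6 and CDT1, which load the ring of MCM2 to MCM7 onto DNA, a step called licensing. In S phase CDC45 and the GINS complex join the loaded ring to form the active helicase, and PCNA, a sliding clamp, holds the polymerases on the template. Most of the genes are classical targets of E2F transcription factors, and their mRNAs are abundant in dividing cells such as leukaemic T cells.

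Promoters of the set were searched for the letters of the E2F element. The 4 printed belong to 4 of the 5 genes whose total RNA was higher in both valine-free libraries than in both control libraries. The other, Mcm3, held 3 E2F and 3 CCAAT matches and is not printed. The printed windows show how differently the letters are arranged among them. Windows of 300 bases, 250 before and 50 after an annotated start, came from RefSeq (GRCm38.p6) and covered 9 of the 10 genes, with 2 windows for Mcm7. The E2F letters searched were TTGGCGC, the second form TTCCCGC, the third form TTCGCGC and the last form TTGCCGC. The letters CCAAT stood for the CCAAT box and the letters GGGCGG for the GC box. Each was searched on both strands, and matches that overlap were counted separately. E2F letters occurred in 7 of the 10 windows, belonging to 6 genes (Mcm3, Mcm5, Mcm6, Mcm7, Cdc6 and Cdt1), against 9.57% of all 32851 windows. CCAAT occurred in 8 of 10 windows against 37.4% of all windows, and the GC box in 8 of 10 against 35.7%. In the sequences, which read 5′ to 3′ in the direction of the gene, capitals mark E2F and CCAAT letters on either strand.
Cdc6: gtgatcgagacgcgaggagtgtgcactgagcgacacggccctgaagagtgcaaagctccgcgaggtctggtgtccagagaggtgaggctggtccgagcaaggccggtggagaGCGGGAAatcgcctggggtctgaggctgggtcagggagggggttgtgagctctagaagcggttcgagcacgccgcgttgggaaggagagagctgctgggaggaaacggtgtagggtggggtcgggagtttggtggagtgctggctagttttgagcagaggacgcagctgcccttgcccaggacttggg
Mcm6: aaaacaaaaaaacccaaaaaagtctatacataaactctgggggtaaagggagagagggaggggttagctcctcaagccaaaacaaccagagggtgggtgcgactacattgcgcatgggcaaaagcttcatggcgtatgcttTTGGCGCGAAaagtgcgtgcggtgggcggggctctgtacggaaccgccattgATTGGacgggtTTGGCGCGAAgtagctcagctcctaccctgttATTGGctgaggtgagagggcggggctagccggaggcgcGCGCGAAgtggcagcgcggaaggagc
Mcm5: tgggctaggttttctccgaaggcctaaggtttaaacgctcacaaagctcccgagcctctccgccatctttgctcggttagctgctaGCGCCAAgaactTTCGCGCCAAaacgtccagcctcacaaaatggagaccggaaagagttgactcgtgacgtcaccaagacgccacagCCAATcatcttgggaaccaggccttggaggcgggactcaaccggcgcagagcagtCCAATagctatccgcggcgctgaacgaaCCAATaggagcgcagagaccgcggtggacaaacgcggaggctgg
Cdc45: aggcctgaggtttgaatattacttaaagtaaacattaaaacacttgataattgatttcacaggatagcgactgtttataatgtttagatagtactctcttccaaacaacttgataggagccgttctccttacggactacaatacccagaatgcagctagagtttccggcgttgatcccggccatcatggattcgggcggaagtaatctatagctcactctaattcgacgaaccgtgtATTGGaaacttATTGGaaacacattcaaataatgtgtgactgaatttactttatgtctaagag
The Cdc6 window (chr11:98907901-98908200, plus strand) held 1 E2F match, from -138 to -132 relative to the start used for that window, and no CCAAT. This window lies wholly inside the Cdc6 gene, whose span begins at 98907709. Bases before that gene start were not searched, so the Cdc6 matches cannot be set against those of the other windows. Of the 2 Mcm7 windows, that at chr5:138171217-138171516 also lies wholly inside its gene. It and the Cdc6 window are both among the 7 windows with E2F letters. The Mcm6 window (chr1:128359656-128359955, minus strand) held 5 E2F matches, among them the overlapping pairs that begin at -109 and -46, and 2 CCAAT matches. The Mcm5 window (chr8:75109259-75109558, plus strand) held 3 E2F and 3 CCAAT matches. The Cdc45 window (chr16:18811923-18812222, minus strand) held 2 CCAAT matches, beginning at -13 and -2, and no E2F letters. A match describes the letters only.

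Depth differed widely between fractions. Reads recovered from the FPKM values (fragments per kilobase, corrected for library depth by the authors) came to between 364685 and 1269364 per total RNA library and between 41848 and 205545 per RPF library. A library of total RNA held 28 to 949 reads of any 1 gene of the set, and an RPF library held 1 to 246. T cell markers took 41.2 to 50.6 of each 10000 total RNA reads over all 8 libraries, with 11 of 13 listed markers in the table and none of those at 0. Neutrophil markers (11 of 11 in the table) took 2.22 to 4.72 of each 10000 total RNA reads at 0 g/kg. At 8 g/kg they took 0.165 to 0.181, with Mpo the only listed marker at 0 and the others detected. Erythroid markers (10 of 11 in the table) took 0.280 to 0.341 at 0 g/kg, with Hbb-bt and Alas2 among those at 0, against 1.68 to 4.29 at 8 g/kg. B cell markers (3 of 6 in the table) took 0.653 to 0.771 at 0 g/kg against 0.0945 to 0.228 at 8 g/kg. Of these 3, Cd79b was at 0 in total RNA on all 4 diets, so the values rest on the others. These marker levels move with the diets compared below, and their part in the results was not tested. In such bulk samples, fewer cells of a type and less RNA per cell cannot be told apart.

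Per kilobase, the sliding clamp was the most abundant transcript of the set and the licensing factor Cdc6 the least. Averaged over the 8 total RNA libraries, Pcna stood at 448 ± 53.6 FPKM (SD, n = 8) and Cdc6 at 16.9 ± 4.61. Between them came Mcm7 at 256, Mcm6 at 194, Mcm2 at 171.5, Mcm5 at 155, Mcm3 at 138, Mcm4 at 106.5, Cdt1 at 88.7 and Cdc45 at 51.1 mean FPKM. In 8 of 8 libraries Pcna exceeded Mcm7, Mcm7 exceeded Mcm6, Mcm3 exceeded Mcm4, Cdt1 exceeded Cdc45 and Cdc45 exceeded Cdc6. Mcm6 was above Mcm2, and Mcm2 above Mcm5, in only 6 of 8, so these neighbours overlapped. The 6 MCM subunits, which assemble in equal numbers into 1 ring, spanned a 2.41-fold range of mean total RNA level and a 3.44-fold range of mean RPF level, with Mcm7 the highest and Mcm4 the lowest in both.

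The RPF order differed from that of the RNA. Mcm7 led at a mean of 392 ± 73.1 FPKM (SD, n = 8), above Pcna at 291 ± 80.4 in 7 of 8 libraries. Mcm3 followed at 221, Mcm2 at 200.04, Mcm6 at 169, Mcm5 at 162, Cdt1 at 144, Mcm4 at 114, Cdc45 at 53.2 and Cdc6 at 27.3. Mcm6 was above Mcm5, and Mcm5 above Cdt1, in 5 of 8 libraries, so the middle of the RPF order was not resolved.

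In total RNA, 0 of the 10 genes differed between any low-valine diet and the control diet at an adjusted p under 0.05, and neither did any other gene tested (0 of 10054 genes, a background of 0%, in limma for 0, 0.4 and 0.8 against 8 g/kg alike). At an unadjusted p under 0.05 limma took 1 of the 10 genes, Cdc6, for 0 against 8 g/kg, beside 6.58% of all genes tested. The estimated log2 change was above 0 for 8 of the 10 genes, with a median of 0.17 beside -0.04 over all genes tested. Both libraries at 0 g/kg lay above both control libraries for 5 of the 10 genes (Mcm3, Mcm5, Mcm6, Cdc6 and Cdc45) and below both for 0. Of all 10054 genes tested, 16.1% lay above both and 2038 genes lay below both. Leaving out the T-ALL 2 library at 0 g/kg left 6 of 10 genes above 0 with a median of 0.08, and leaving out the T-ALL 3 library at 0 g/kg gave 10 of 10 with a median of 0.26.

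**Figure D1:**
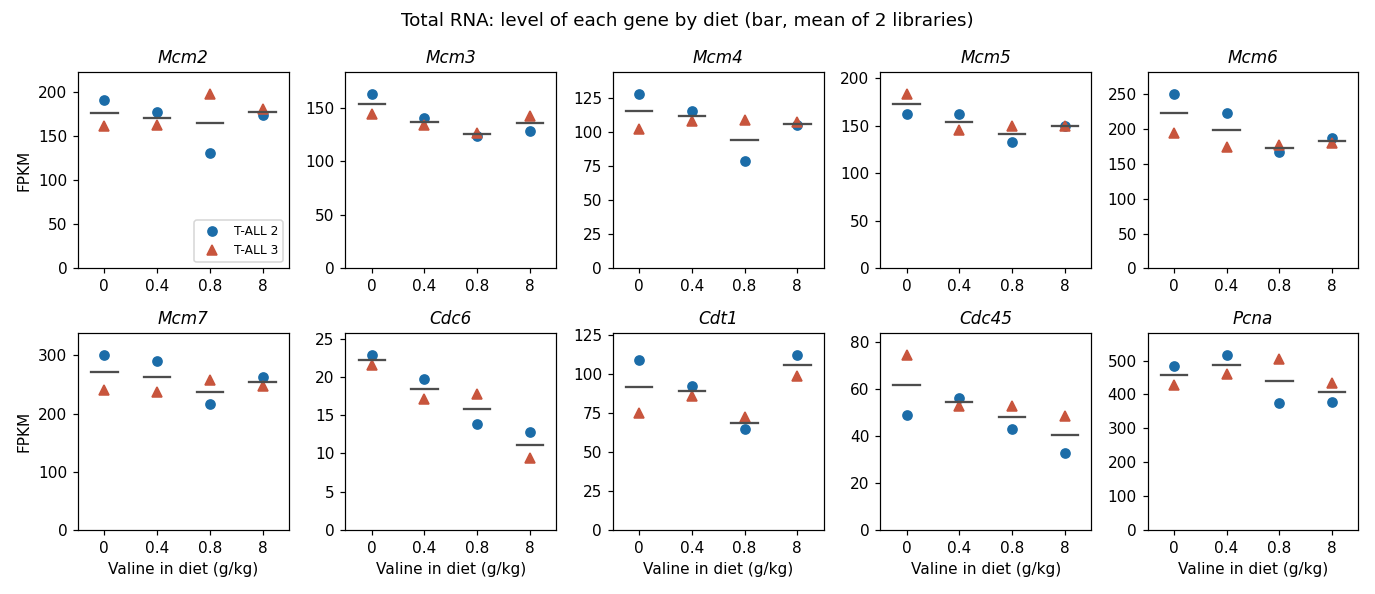
Total RNA level of each gene in FPKM (linear axis from 0) by valine in the diet in g/kg, with circles for T-ALL 2, triangles for T-ALL 3 and a bar at the mean of the 2 libraries. Cdc6 runs from 21.6 and 22.8 FPKM at 0 g/kg to 9.44 and 12.8 at 8 g/kg, whereas the diets overlap for Mcm2 and Mcm7.

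Cdc6, the ATPase that brings the MCM ring to the origin recognition complex (chr11:98907709-98923942, ENSMUSG00000017499), showed the largest estimated total RNA difference of the set. Its level at 0 g/kg was 22.8 FPKM in T-ALL 2 and 21.6 in T-ALL 3, against 12.8 and 9.44 at 8 g/kg. At 0.4 g/kg it was 19.8 and 17.1, and at 0.8 g/kg 13.8 and 17.7. Both valine-free libraries were thus above all 4 libraries at intermediate doses, which were above both controls, while the 0.4 and 0.8 g/kg diets overlapped. That arrangement, looked for after the values were seen, was found in 46 of 10054 genes (0.458%) and in no other gene of the set. The log2 change for 0 against 8 g/kg was 0.98 ± 0.27 (SE), a fold of 1.98, with a 95% interval from 0.38 to 1.59 and a limma adjusted p of 0.474 (unadjusted 0.00524). It was 0.82 in T-ALL 2 and 1.15 in T-ALL 3. Against the same controls it was 0.72 ± 0.27 at 0.4 g/kg (unadjusted p = 0.0251) and 0.49 ± 0.27 at 0.8 g/kg (unadjusted p = 0.0978), each with an adjusted p of 1 in limma. These comparisons share their 2 control libraries.

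The Cdc6 values rest on few reads. At 0 g/kg 71 and 43 reads were recovered in T-ALL 2 and T-ALL 3, a share of 0.0101% (95% Wilson interval 0.00799 to 0.0127%) and 0.0100% (0.00745 to 0.0135%) of the library. At 8 g/kg 70 and 35 reads made 0.00551% (0.00437 to 0.00697%) and 0.00414% (0.00297 to 0.00575%). Counting intervals of the valine-free and control libraries did not overlap, and they cover counting error only, since amplified reads are not independent molecules.

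Cdt1, the partner of CDC6 in loading the ring (chr8:122568015-122573130, ENSMUSG00000006585), did not follow Cdc6. Its total RNA level was 109 FPKM in T-ALL 2 and 74.9 in T-ALL 3 at 0 g/kg, 92.4 and 85.6 at 0.4 g/kg, 64.9 and 72.2 at 0.8 g/kg, and 112 and 98.8 at 8 g/kg. The libraries at 0.4 and 0.8 g/kg were all below both controls, and the T-ALL 2 library at 0 g/kg fell between the controls. Its log2 change was -0.62 ± 0.20 at 0.8 g/kg (limma unadjusted p = 0.0139, adjusted p = 1). Cdt1 was the only gene of the set at an unadjusted p under 0.05 in that comparison, beside 3.45% of all genes. The log2 change of Cdt1 was -0.24 ± 0.20 at 0.4 g/kg and -0.22 ± 0.20 at 0 g/kg. At 0.4 g/kg the single gene of the set at an unadjusted p under 0.05 was Cdc6, beside 3.09% of all genes.

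The 6 MCM subunits form the helicase ring, and their total RNA estimates for 0 against 8 g/kg lay between -0.01 for Mcm2 and 0.27 for Mcm6 on the log2 scale. Mcm6 (chr1:128331575-128359705) stood at 250.3 FPKM in T-ALL 2 and 194 in T-ALL 3 at 0 g/kg, 223 and 174.5 at 0.4 g/kg, 166 and 177 at 0.8 g/kg, and 187 and 179 at 8 g/kg. Both valine-free libraries were above both controls, and both 0.8 g/kg libraries were below them, as for 1788 of all 10054 genes. The log2 change of Mcm6 at 0 g/kg was 0.27 ± 0.17 (95% interval -0.12 to 0.66, limma adjusted p = 0.861). Mcm5 (chr8:75109468-75128439) stood at 163 and 184 FPKM at 0 g/kg, 162 and 146 at 0.4 g/kg, 133 and 150.2 at 0.8 g/kg, and 150.0 and 150.3 at 8 g/kg. Its control libraries were nearly equal and both valine-free libraries were higher, by 0.20 ± 0.14 (95% interval -0.12 to 0.53, limma adjusted p = 0.871). Mcm3 (chr1:20802966-20820312) stood at 163 and 144 FPKM at 0 g/kg, 140.2 and 134 at 0.4 g/kg, 124 and 127 at 0.8 g/kg, and 129 and 143 at 8 g/kg. For Mcm3 the gap between the lower valine-free library and the higher control library was small, and the log2 change of 0.18 ± 0.14 had a 95% interval from -0.14 to 0.50.

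For the other subunits the valine-free and control libraries overlapped. Mcm2 (chr6:88883474-88898780) stood at 190.5 and 161 FPKM at 0 g/kg in T-ALL 2 and T-ALL 3, 177 and 162 at 0.4 g/kg, 130.4 and 198 at 0.8 g/kg, and 173 and 180 at 8 g/kg. Mcm4 (chr16:15623897-15637400) stood at 128 and 102 at 0 g/kg, 115 and 108 at 0.4 g/kg, 78.8 and 108 at 0.8 g/kg, and 105 and 107 at 8 g/kg. Mcm7 (chr5:138164583-138172111) stood at 300.3 and 241 at 0 g/kg, 290 and 237 at 0.4 g/kg, 216 and 258 at 0.8 g/kg, and 262 and 247 at 8 g/kg. In each of these 3 the T-ALL 2 library at 0 g/kg was above both controls and the T-ALL 3 library was below both. Their log2 changes for 0 against 8 g/kg were -0.01 ± 0.20 for Mcm2, 0.11 ± 0.19 for Mcm4 and 0.08 ± 0.17 for Mcm7, and the 95% intervals reached from -0.46 to 0.45, from -0.33 to 0.54 and from -0.30 to 0.46.

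Cdc45, which activates the loaded ring as part of the fork helicase (chr16:18780447-18811972, ENSMUSG00000000028), had the second largest estimate. Its total RNA level was 49.0 FPKM in T-ALL 2 and 74.2 in T-ALL 3 at 0 g/kg, 56.2 and 52.6 at 0.4 g/kg, 43.1 and 52.5 at 0.8 g/kg, and 32.7 and 48.4 at 8 g/kg. The valine-free and control libraries did not overlap but nearly touched, at 49.0 and 48.4 FPKM. The log2 change was 0.60 ± 0.26 (fold 1.51, 95% interval -0.0045 to 1.20, limma unadjusted p = 0.0514, adjusted p = 0.760), at 0.58 in T-ALL 2 and 0.61 in T-ALL 3. Pcna, the sliding clamp (chr2:132249286-132253180), stood at 485 and 427 FPKM at 0 g/kg, 516 and 459 at 0.4 g/kg, 376 and 505 at 0.8 g/kg, and 378 and 435 at 8 g/kg. Its valine-free and control libraries overlapped, with a log2 change of 0.17 ± 0.17. Both 0.4 g/kg libraries were above both controls, as for 1850 of all 10054 genes, with a log2 change of 0.26 ± 0.17.

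**Figure D2:**
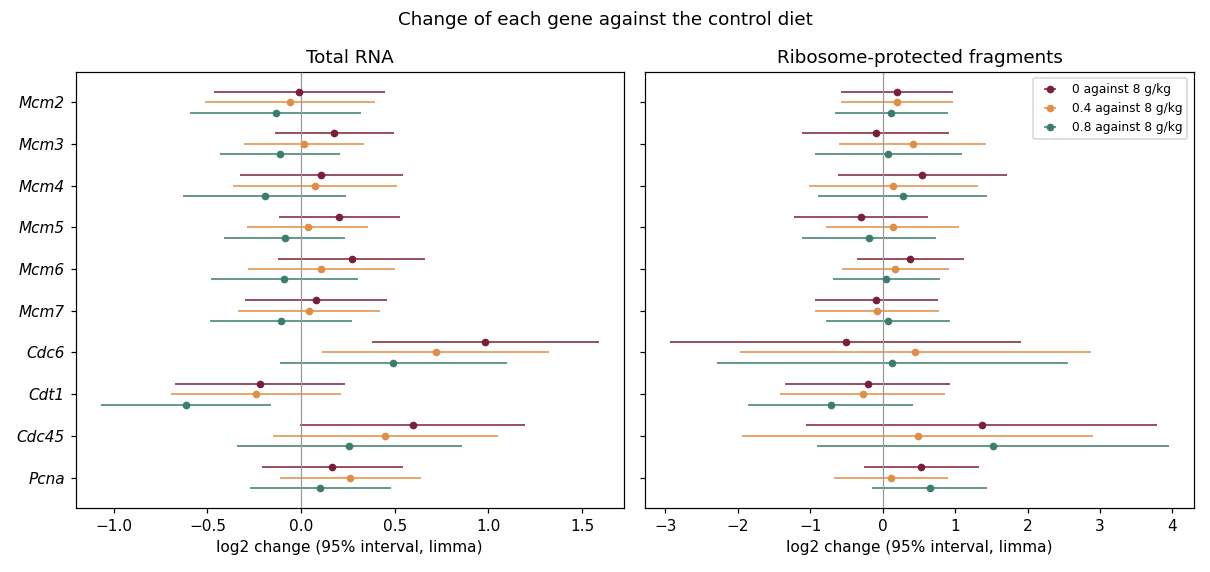
Log2 change of each gene against the 8 g/kg diet for the 0, 0.4 and 0.8 g/kg diets, in total RNA at left and in ribosome-protected fragments at right, with points for the limma estimate and lines for its 95% interval (n = 2 libraries per diet, no adjustment for the number of genes; the horizontal axes differ). The total RNA interval of Cdc6 lies above 0 for the 0 and 0.4 g/kg diets and that of Cdt1 below 0 for 0.8 g/kg, while each RPF interval covers 0.

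The diets with the highest and lowest levels are given for each T-ALL number, without a test between them. In T-ALL 2, 7 of the 10 genes had their highest total RNA level at 0 g/kg, whereas 27.6% of all genes tested did, and 8 of 10 had their lowest level at 0.8 g/kg, against 28.4% of all genes. In T-ALL 3, 5 of 10 were highest at 0 g/kg (25.5% of all genes), 3 of 10 were lowest there (31.8%), and 4 of 10, namely Mcm2, Mcm4, Mcm7 and Pcna, were highest at 0.8 g/kg (28.3%). Cdc6 and Cdc45 were the genes with their lowest level at 8 g/kg in both T-ALL numbers, and Mcm3, Mcm5, Mcm6 and Cdc6 were highest at 0 g/kg in both. Of all genes, 20.6% were lowest at 8 g/kg in T-ALL 2 and 20.1% in T-ALL 3. The share of all genes alike in both numbers was not worked out, so whether these agreements are unusual is not known. The T-ALL 2 library at 0.8 g/kg held the smallest share of reads from the 10 genes, 0.355% (95% Wilson interval 0.343 to 0.368%), and the valine-free library of T-ALL 2 the largest, 0.497% (0.481 to 0.514%). In T-ALL 3 the share was 0.454% (0.434 to 0.475%) on the valine-free diet. On the diets with more valine it was, in rising dose order, 0.407% (0.393 to 0.422%), 0.423% (0.402 to 0.444%) and 0.415% (0.402 to 0.429%). The intervals of these diets with valine overlapped each other. The valine-free interval overlapped that of 0.8 g/kg but not those of 0.4 and 8 g/kg, and the intervals cover counting error only.

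Set against the mean of the 0.4 and 0.8 g/kg diets, which leaves out the control libraries, the valine-free diet gave an estimate above 0 for 9 of the 10 genes, with a median of 0.22 beside -0.01 over all genes. Limma took 0 of 10 at an unadjusted p under 0.05 (6.81% of all genes) and 0 at an adjusted p under 0.05 (0% of all genes). Estimates ran from -0.02 ± 0.14 for Pcna to 0.38 ± 0.23 for Cdc6, with Mcm6 at 0.26 ± 0.15, Mcm5 at 0.23 ± 0.12 and Mcm3 at 0.23 ± 0.12. On dropping the valine-free library of T-ALL 2, the count above 0 was 6 of 10 and the median 0.04.

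A trend over the rank of the 4 doses was below 0 for 9 of the 10 genes in total RNA. A negative slope means less RNA with each step up in valine. The median slope was -0.07 beside 0.01 over all genes. The trend reuses the libraries of the comparisons above and is not separate from them. The slope of Cdc6 was -0.32 ± 0.08 log2 units per step (limma unadjusted p = 0.00186, adjusted p = 0.451) and that of Cdc45 was -0.20 ± 0.08 (unadjusted p = 0.0238, adjusted p = 0.668). These 2 of 10 genes were at an unadjusted p under 0.05, as were 6.79% of all genes, and 0% of all genes passed after adjustment. Mcm6 had -0.10 ± 0.05 and Mcm5 -0.07 ± 0.04, and Cdt1 had the only positive slope, 0.03 ± 0.08. No gene of the set had all 4 diets in order without overlap, a pattern that 0.0597% of all genes tested showed with more RNA at less valine.

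In RPF the 10 genes were split evenly for 0 against 8 g/kg, with 5 estimates above 0 and 5 below and a median of 0.05 beside 0.12 over all genes. The median of the set was -0.10 when libraries were centred on the median gene and 0.15 after quantile normalization, so its sign depends on the scaling. Limma called 0 of 10 at an adjusted p under 0.05 for 0, 0.4 or 0.8 against 8 g/kg, or for 0 g/kg against the intermediate diets, as for all genes (0%). For the dose trend in RPF 0 of 10 were called, beside 0.0103% of all genes. At an unadjusted p under 0.05 it took 0 of 10 for 0 against 8 g/kg, beside 7.17% of all genes. Both valine-free libraries were above both controls for Mcm6 and Pcna, 2 of 10 genes, as for 16.7% of all genes tested. No gene of the set had all 4 diets in order in RPF, where 0.0823% of all genes did with more RPF at less valine. Neutrophil markers took 3.41 to 27.6 of each 10000 RPF reads at 0 g/kg against 0.239 to 0.420 at 8 g/kg, where 8 of 11, Mpo and Elane among them, were at 0, and their part in the RPF values was not tested.

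**Figure D3:**
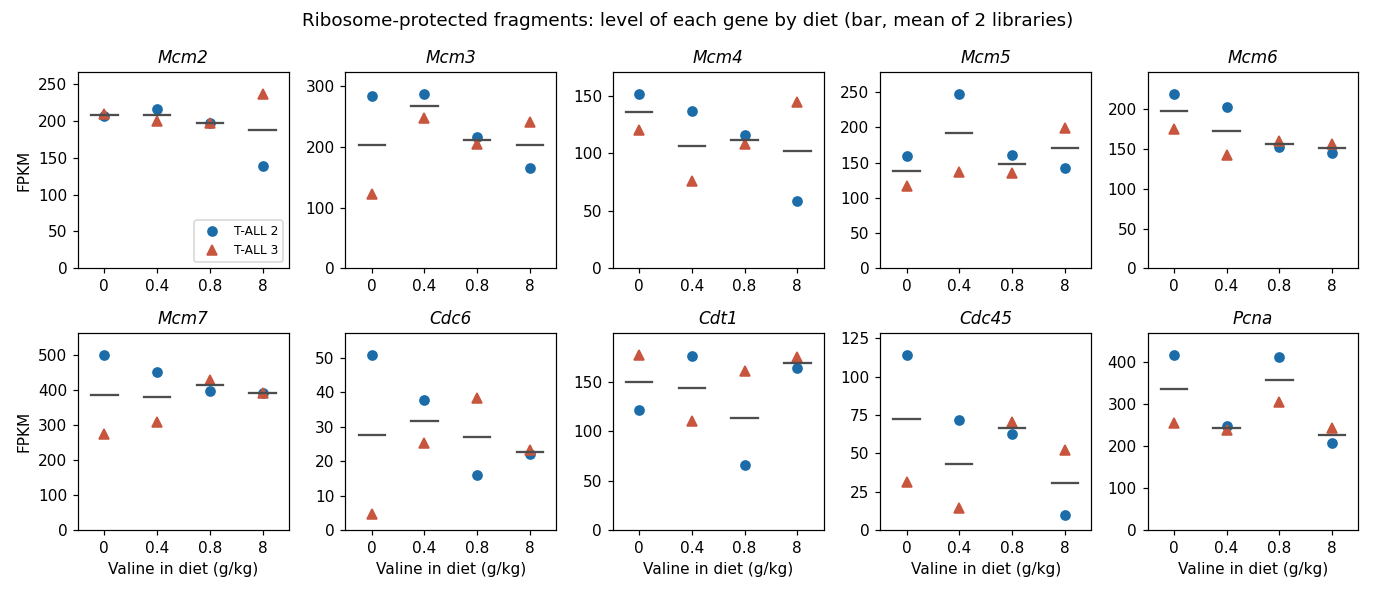
Level of each gene in ribosome-protected fragments in FPKM (linear axis from 0) by valine in the diet in g/kg, with circles for T-ALL 2, triangles for T-ALL 3 and a bar at the mean of the 2 libraries. The T-ALL 2 and T-ALL 3 libraries of 1 diet lie far apart for Cdc6 (50.9 and 4.61 FPKM at 0 g/kg) and Cdc45 (114 and 31.0), and close together for Mcm2 at 0 g/kg (207 and 209).

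The Cdc6 pattern seen in total RNA was not present in its RPF values. These were 50.9 FPKM in T-ALL 2 and 4.61 in T-ALL 3 at 0 g/kg, 37.9 and 25.2 at 0.4 g/kg, 15.9 and 38.5 at 0.8 g/kg, and 22.0 and 23.1 at 8 g/kg. The valine-free libraries were the highest and the lowest of all 8, on either side of the controls, and rest on 22 and 2 reads. The log2 change of -0.51 ± 1.04 had a 95% interval from -2.93 to 1.91, wide enough to hold the total RNA estimate of 0.98. Within T-ALL 2, the ratio of read shares at 0 over 8 g/kg was 2.29 with an exact 95% counting interval from 0.847 to 7.74, from 22 and 5 reads. Within T-ALL 3 it was 0.201 with an interval from 0.0211 to 0.969, from 2 and 9 reads.

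Cdc45 RPF values were scattered to a similar extent. They were 114 and 31.0 FPKM at 0 g/kg in T-ALL 2 and T-ALL 3, 71.9 and 14.1 at 0.4 g/kg, 62.3 and 70.5 at 0.8 g/kg, and 9.84 and 51.8 at 8 g/kg. The lowest value, the T-ALL 2 control, came from 1 read. Within T-ALL 2 the ratio of read shares at 0 over 8 g/kg was 11.5 with an exact 95% counting interval from 1.85 to 473, and within T-ALL 3 it was 0.602, from 0.176 to 1.89. The fitted log2 change was 1.37 ± 1.04 (95% interval -1.06 to 3.79, limma adjusted p = 0.818).

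Among the MCM subunits, only Mcm6 had both valine-free RPF libraries above both controls. Its RPF level was 219 and 175 FPKM at 0 g/kg, 203 and 143 at 0.4 g/kg, 152 and 160.0 at 0.8 g/kg, and 145 and 156 at 8 g/kg. The 0.4 g/kg libraries lay on either side of the controls, and the log2 change at 0 g/kg was 0.38 ± 0.32 (95% interval -0.36 to 1.12, limma adjusted p = 0.818), beside 0.27 in total RNA. Mcm3 RPF values went apart at 0 g/kg, 285 in T-ALL 2 and 122 in T-ALL 3, against 166 and 241 at 8 g/kg, with 288 and 247 at 0.4 g/kg and 217 and 206 at 0.8 g/kg. For Mcm3 the ratio of read shares was 1.70 (exact 95% counting interval 1.09 to 2.72) in T-ALL 2 and 0.512 (0.334 to 0.773) in T-ALL 3. Each such ratio sets 1 library against 1 and its interval covers counting error only, so a difference between T-ALL numbers was not tested. The controls also differed for Mcm4, at 58.7 FPKM from 10 reads in T-ALL 2 and 144 from 42 reads in T-ALL 3, with 152 and 120.2 at 0 g/kg, 137 and 76.0 at 0.4 g/kg, and 116 and 108 at 0.8 g/kg. The log2 change of Mcm4 was 0.55 ± 0.50, and those of Mcm2, Mcm3, Mcm5 and Mcm7 were 0.20 ± 0.33, -0.10 ± 0.44, -0.30 ± 0.40 and -0.09 ± 0.37.

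Over the 8 RPF libraries Mcm7 held between 273 and 498 FPKM, with both the highest and the lowest value at 0 g/kg. Mcm5 ran from 116 at 0 g/kg in T-ALL 3 to 248 at 0.4 g/kg in T-ALL 2, and Mcm2 from 139 to 237, with both ends among the controls. Cdt1 stood at 122 and 177 FPKM at 0 g/kg, 176 and 111 at 0.4 g/kg, 65.3 and 161 at 0.8 g/kg, and 164 and 175 at 8 g/kg. Both 0.8 g/kg libraries were below both controls for Cdt1, as in total RNA, and so they were for 954 of all 9718 genes tested in RPF. The RPF log2 change of Cdt1, -0.72 ± 0.49, had a 95% interval from -1.86 to 0.42. Pcna stood at 417 and 255 FPKM at 0 g/kg, 249 and 239 at 0.4 g/kg, 411 and 304 at 0.8 g/kg, and 208 and 244 at 8 g/kg. Both the valine-free and the 0.8 g/kg libraries of Pcna were above both controls, with log2 changes of 0.53 ± 0.34 and 0.65 ± 0.34 (limma adjusted p = 0.818 and 0.926). At 0.8 g/kg 2087 of all 9718 genes tested were above both controls, Mcm7 and Cdc45 among them.

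The RPF counts moved with single libraries. In T-ALL 2, 8 of the 10 genes had their lowest RPF value at 8 g/kg, the shallowest library with 41848 reads, against 30.8% of all genes tested, and in T-ALL 3 none did (20.7% of all genes). Without that library the RPF estimates for 0 against 8 g/kg were above 0 for 3 of 10 genes with a median of -0.14. On dropping the valine-free library of T-ALL 3 instead, estimates were above 0 for 8 of 10 with a median of 0.53.

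Translational efficiency (TE), the log2 RPF value minus the log2 total RNA value of the same diet and T-ALL number, was above that of the median gene for 9 of the 10 genes. Averaged over the 8 pairs, Cdt1 stood at 0.65 ± 0.45 (SD, n = 8), Mcm3 at 0.64 ± 0.40 and Mcm7 at 0.59 ± 0.22, beside -0.59 for the median of 9361 genes. These 3 were at the 93.4th, 93.1st and 92.2nd percentile, and Cdt1, Mcm2, Mcm3 and Mcm7 exceeded the median gene in 8 of 8 pairs. Cdc6 averaged 0.47 ± 1.10, Mcm2 0.22 ± 0.28, Mcm4 0.05 ± 0.48 and Mcm5 0.03 ± 0.39. Mcm6 varied least, at -0.20 ± 0.083, and Cdc45 most, at -0.27 ± 1.15. Pcna was the exception at -0.66 ± 0.40, the 47.4th percentile, above the median gene in 2 of 8 pairs. Both fractions were scaled to their own library, so a TE is relative to other genes and not an absolute rate. Of the genes in the table, 23.5 to 44.6% were at 0 in an RPF library, against 7.64 to 15.7% in total RNA. A gene at 0 reads in RPF gets a low TE, so these percentiles also depend on abundance and depth. The part of either in the ranks was not tested.

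**Figure D4:**
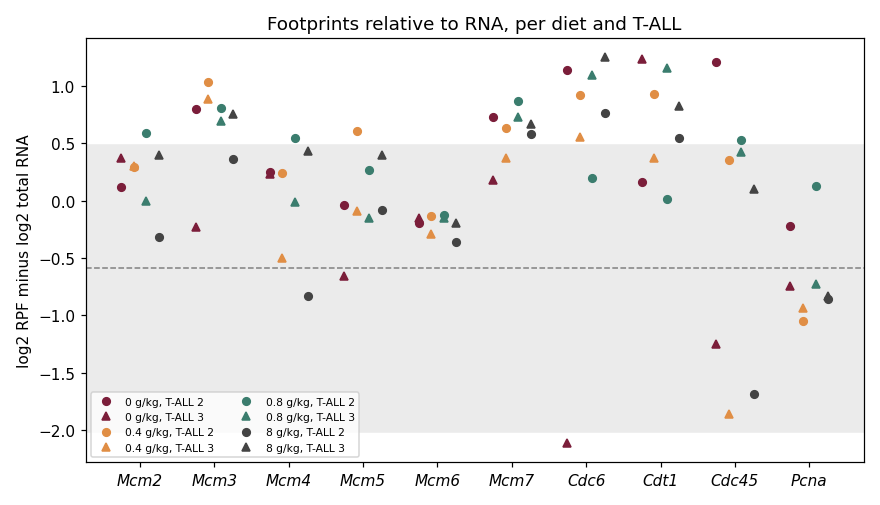
Log2 RPF minus log2 total RNA of each gene for every pair of libraries, coloured by diet in g/kg with circles for T-ALL 2 and triangles for T-ALL 3. The dashed line is the median of the mean TE of 9361 genes (-0.59) and the grey band covers their middle 80%, and the Mcm6 points lie within -0.36 to -0.13 while those of Cdc6 and Cdc45 spread widely.

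With diet, TE did not differ for any gene of the set at an adjusted p under 0.05. Limma called 0 of 10 for 0 against 8 g/kg, beside 0.0427% of all genes, and 0 of 10 for 0.8 against 8 g/kg, beside 0.0107%. For 0.4 against 8 g/kg, 0 g/kg against the intermediate diets and the dose trend, 0 of 10 and 0% of all genes were called. At an unadjusted p under 0.05 the count for 0 against 8 g/kg was 0 of 10 beside 6.23% of all genes. Of the 10 estimates 6 were above 0, with a median of 0.06 beside 0.20 over all genes. They ran from -1.49 ± 1.05 for Cdc6 to 0.77 for Cdc45, the genes with the fewest RPF reads.

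The genes whose total RNA followed the mean log2 level of the set most closely, among 5520 genes with a mean of at least 10 FPKM, were Uhrf1, Atad5, mt-Nd2, Prim1 and mt-Nd5. Over the 8 libraries Uhrf1 had a Pearson r of 0.98 (Spearman rho 0.98) and Atad5 0.95 (0.88). mt-Nd2 had 0.94 (0.83), Prim1 0.93 (0.90) and mt-Nd5 0.92 (0.83). These are descriptions without a test, over libraries that share diets and T-ALL numbers and whose values share 1 scaling per library. Within the set, r with its own mean was highest for Mcm4 at 0.89 and lowest for Cdt1 at 0.43.

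Other cell cycle lists are given beside the set, with no test of a difference between lists. Of 59 other replication factors tested, which cover the origin recognition complex, GINS, polymerases, primase and clamp loader, 46 had a total RNA estimate above 0 and 13 below for 0 against 8 g/kg, with a median of 0.18 (39 to 50 above 0 over the alternatives tried). Limma called 0 of 59 after adjustment, and 3 higher and 3 lower at an unadjusted p under 0.05, beside 6.58% of all genes in that comparison. In RPF the list had a median of 0.17 for 0 against 8 g/kg and -0.22 against the intermediate diets, where 23 estimates were above 0 and 36 below, and its TE median for 0 against 8 g/kg was -0.11. The set itself had 0.05, 0.09 and 0.06 in these comparisons. Among the 59 factors, Cdc7, the kinase that triggers origin firing, had a total RNA estimate of 0.84 ± 0.32 for 0 against 8 g/kg. Pole2, a polymerase epsilon subunit, had 0.60 ± 0.24. Lower estimates came from Orc2, an origin recognition subunit, at -0.89 ± 0.23, and Pole3, another polymerase epsilon subunit, at -1.42 ± 0.48. Pole3 stood at 17.5 FPKM in T-ALL 2 and 4.96 in T-ALL 3 at 0 g/kg against 26.5 and 25.3 at 8 g/kg, and its estimate was -0.56 without the lower of the valine-free libraries. Orc2 stood at 14.3 and 11.5 FPKM at 0 g/kg against 23.8 and 24.7 at 8 g/kg, without overlap (limma adjusted p = 0.469). The RPF estimates were -1.89 ± 1.29 for Cdc7, -2.43 ± 2.11 for Pole2, 0.03 ± 1.19 for Orc2 and -4.90 ± 1.07 for Pole3. Thus Cdc7, Pole2 and Orc2 had the other sign in RPF, with wide errors. At 0 g/kg RPF was at 0 FPKM for Cdc7 in T-ALL 2, Pole2 in T-ALL 3 and Pole3 in both.

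Of 27 genes tested that control licensing and the G1 to S step, 19 had a total RNA estimate above 0 and 8 below. The comparison was again 0 against 8 g/kg, and the median was 0.16. Limma took 0 after adjustment, with 2 higher and 1 lower at an unadjusted p under 0.05, again beside 6.58% of all genes. E2f3 had 1.01 ± 0.39 and E2f8, a repressive E2F, 0.66 ± 0.27, while Myc, which promotes growth and G1 exit, had -0.78 ± 0.15. Myc stood at 167 and 143 FPKM at 0 g/kg against 272 and 262 at 8 g/kg (limma unadjusted p = 0.000702, adjusted p = 0.267). Nucleotide synthesis genes were divided, 12 above and 11 below 0 of 23, with a median of 0.05 and 0 called after adjustment. Rrm2, the S phase subunit of ribonucleotide reductase, had 0.43 ± 0.15 and Adss, of AMP synthesis, -0.42 ± 0.18.

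In total RNA, 10 of 30 mitosis estimates were above 0 and 20 below for 0 against 8 g/kg, with a median of -0.12. Limma called 0 after adjustment and took 2 as lower at an unadjusted p under 0.05, beside 404 of all 10054 genes. Against the intermediate diets 29 of 30 were below 0 with a median of -0.44. There 9 were lower at an unadjusted p under 0.05 in limma, beside 420 of all 10054 genes. Cyclin B2 (Ccnb2) had -1.07 ± 0.24 and Cdc20, which activates the anaphase-promoting complex, -1.10 ± 0.27 for 0 against 8 g/kg. Core histone genes, whose mRNAs accumulate in S phase, had 54 of 56 estimates below 0 for 0 against 8 g/kg, with a median of -0.51. Limma called 0 after adjustment and took 38 as lower at an unadjusted p under 0.05, beside 404 of all 10054 genes. Against the intermediate diets all 56 were below 0, with a median of -0.60, while the 10 replication genes had a median of 0.22. In that comparison 47 histone genes were lower at an unadjusted p under 0.05 in limma, beside 420 of all 10054 genes. Reads of histone genes may be shared between near-identical copies, so single members such as Hist1h3g, at -0.96 ± 0.16, are uncertain. For the same reason the 56 estimates may not be separate observations, which limits the histone counts as well. Over the alternatives tried, the mitosis median for 0 against 8 g/kg ran from -0.41 to 0.11 and that of the histones from -0.62 to -0.37. Against the intermediate diets 25 to 30 mitosis and 53 to 56 histone estimates were below 0 over the same alternatives. 

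**Figure D5:**
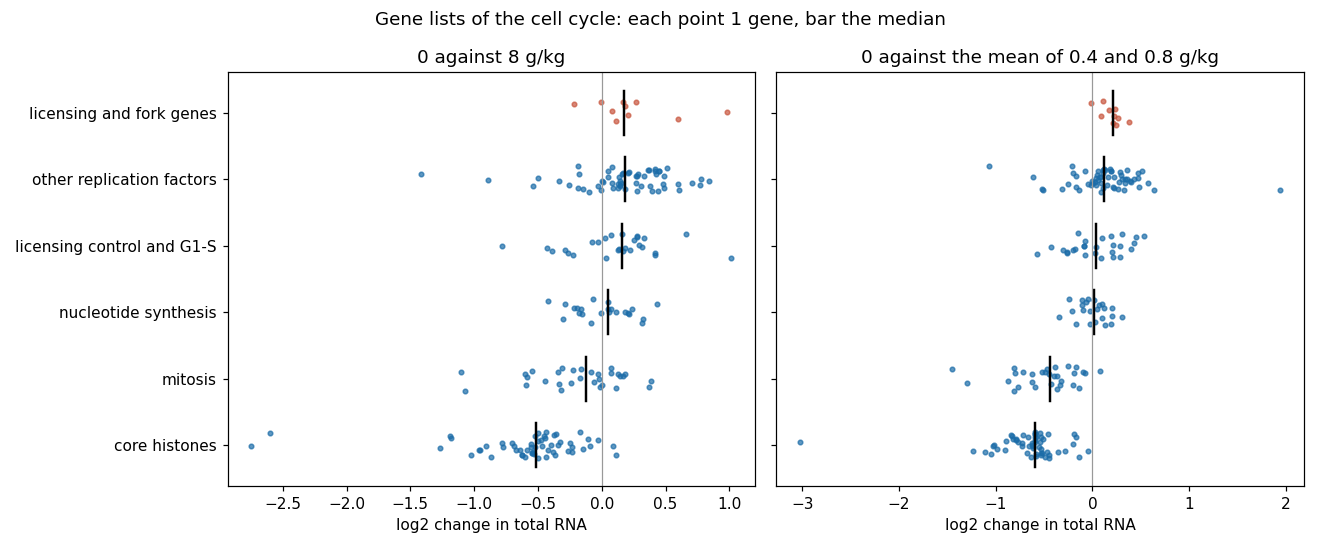
Log2 change in total RNA of each gene (points, spread vertically at random for legibility) in the replication set and the other cell cycle lists, for 0 against 8 g/kg at left and 0 against the mean of 0.4 and 0.8 g/kg at right, with a bar at the list median. The replication set has medians of 0.17 and 0.22, and core histones have -0.51 and -0.60.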

How the data were processed

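Per the deposited table, values are FPKM per gene and library, made by the authors. Builds mm10 and GRCm38 and the tools edgeR 3.14.0, STAR 2.5.0c, Bowtie2 2.3.4 and cutadapt 1.18 are listed in the submitters' processing notes. How reads were counted, genes filtered and FPKM computed is not given in the sources used here. In each library, low values were whole multiples of 1 read per gene length. Reads were recovered from these steps, and a solution for a gene was accepted only if all its values were whole within 0.02 reads. That 100% of 149988 values above 0 met this limit therefore follows from the rule and is no check. The largest distance from a whole read was 1.1e-05.

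For each fraction, limma 3.58.1 (R 4.3.3) was run on log2(FPKM + 0.5) of the 8 libraries, with a coefficient per diet, after dropping genes whose mean FPKM was under 1. The pseudocount understates changes of low genes. Moderation used the variance trend. Two-sided p-values were corrected over every gene tested (Benjamini-Hochberg). Standard errors come from the moderated variance over all 8 libraries. TE was fitted likewise. An exact permutation of 2 against 2 libraries cannot go below p = 0.333. Fits and read recovery were tested on simulated data, with a fixed spread between libraries that was not estimated from these data. The simulation therefore does not show how small a change could be found for genes of the set. Gene positions and promoters came from RefSeq (GRCm38.p6), and 11391 of 12005 symbols matched.

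The 10 genes, the lists and the tests were chosen with earlier results of these data known. Other genes are named where they are among up to 4 of a list with the smallest unadjusted p for 0 against 8 g/kg in total RNA, or are most like the set's mean. Alternatives covered pseudocount, filter, scaling, voom on recovered reads, thinning to equal depth, the variance trend, a block and each library left out.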

Additional observations from a re-analysis of the deposited data

Results flagged for a closer look

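In RPF, 3 of the 10 genes moved in opposite directions in T-ALL 2 and T-ALL 3 between 8 and 0 g/kg valine, by at least 0.5 log2 units each way, as did 22.5% of all 9718 genes tested. The log2 change in T-ALL 2 minus that in T-ALL 3 was 1.75 for Mcm3, 3.40 for Cdc6 and 4.20 for Cdc45. Each was higher at 0 g/kg in T-ALL 2 (0.78, 1.19 and 3.47) and lower in T-ALL 3 (-0.97, -2.21 and -0.73). The Cdc6 values rest on 22 and 5 reads at 0 and 8 g/kg in T-ALL 2 and on 2 and 9 in T-ALL 3, and those of Cdc45 on 22 and 1 and on 6 and 9. With 1 library per diet and T-ALL number the difference was not tested.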

How the results depend on the processing

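No gene of the set was called under any of the 18 alternatives for 0 against 8 g/kg, 0 g/kg against the intermediate diets, or the total RNA trend. Over the alternatives the total RNA log2 change of Cdc6 for 0 against 8 g/kg ran from 0.78 to 1.19 (adjusted p 0.200 to 0.999), its slope from -0.35 to -0.25 (adjusted p 0.0676 to 0.933), and the change of Cdc45 from 0.30 to 0.89. In RPF, Cdc6 ran from -2.17 to 1.16 and Cdc45 from 0.20 to 2.54. Of 180 values per comparison (10 genes and 18 alternatives), the sign turned in 8 for total RNA and 8 for RPF at 0 against 8 g/kg and in 12 for TE. Against the intermediate diets it turned in 10, 11 and 18, and in 8 for the total RNA trend. Values moved by more than the spread in 48 cases, 46 of them on leaving out a library. The median of all genes for 0 against 8 g/kg in RPF was 0.12 as deposited, -0.04 after median centring and -0.02 with voom, so the RPF split of the set is relative to that shift. Low RPF depth limits Cdc6 and Cdc45 most.

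Counts of all genes called moved as follows. With a pseudocount of 0.1 TE had 8 calls for 0, 5 for 0.4 and 7 for 0.8 against 8 g/kg, and the RPF trend 0. A pseudocount of 1 gave 2 for the total RNA trend, and 1 and 0 for TE at 0 and 0.8 g/kg. A mean FPKM of at least 5 gave 0 for the RPF trend, and median centring gave 0 there and 1 for TE at 0 g/kg. Quantile normalization gave 1 for total RNA at 0 g/kg against the intermediate diets, 1 for the total RNA trend, and 1 and 0 for TE at 0 and 0.8 g/kg. Voom on recovered reads called 3 genes for total RNA at 0 against 8 g/kg, 8 against the intermediate diets and 25 for the trend, with 6, 16 and 9 for RPF, and 0 for TE at 0 and 0.8 g/kg. Thinned reads gave 1 each for total RNA at 0.4 and 0.8 g/kg and RPF at 0.4 g/kg, 0 for the RPF trend, and 0, 1 and 2 for TE at 0, 0.4 and 0.8 g/kg. Without the variance trend the RPF trend and TE at 0 and 0.8 g/kg had 0 calls. With T-ALL number as a replicate block these also had 0 calls, and no comparison had any. Same-numbered libraries had correlated deviations of -0.04 to 0.25 in total RNA and -0.02 to 0.07 in RPF, so the numbers were not shown to pair the samples.

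Leaving out a library in turn gave 0 to 4 calls for total RNA at 0 against 8 g/kg, 0 to 28 at 0.8 g/kg (28 without T-ALL 2 at 0.8 g/kg), 0 to 10 for 0 g/kg against the intermediate diets (10 without T-ALL 2 at 0 g/kg), 0 to 5 for the trend and 0 to 1 for the RPF trend. For TE it gave 0 to 42 at 0 g/kg, 0 to 38 at 0.4 g/kg and 0 to 64 at 0.8 g/kg, with the most calls without the T-ALL 3 control pair. A diet left with 1 library is assumed to vary like the others. The cause of these moves was not tested. A planned comparison of the valine content of the encoded proteins was not run.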
